A study of Mus musculus with 6 samples.

Results

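The genes described here are 10 immediate early response genes, Fos, Jun, Junb, Egr1, Klf6, Ier2, Ier3, Dusp1, Btg2 and Zfp36, measured in mouse liver. They were taken by name, as every probe set on the array whose annotation gives exactly 1 of these symbols, which found all 10 genes at 16 of 45037 probe sets. Jun and Btg2 each had 2 probe sets, Klf6 had 5 and the other genes had 1. A probe set is the group of short oligonucleotides on an Affymetrix array that together measure 1 transcript.

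The study set 3 wild-type B6 mice (WT, titled 78, 30 and 31) beside 3 mice carrying a LIGHT transgene (LIGHT Tg, titled 77, 34 and 35). All 6 were fed a high-fat diet for 2 weeks and were aged 4 to 8 weeks, and RNA of total liver from each went onto 1 array. LIGHT is the ligand of the tumour necrosis factor family encoded by Tnfsf14. No source used here names the promoter that drives the transgene or the strain that carries it, so transgene and genetic background cannot be told apart. The free-text description of each LIGHT Tg sample calls it wild-type, and genotype was taken from the title and source name of each. No label states outright that each array is a different animal, and if some share an animal the spread behind each p-value is partly technical.

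Immediate early genes are switched on within minutes of a stimulus, without the need for new protein synthesis. Growth factors, cytokines, stress hormones and tissue injury reach them through MAP kinases and through the transcription factors SRF, ELK and CREB, which sit on the promoters before the signal arrives. In liver they are known for their brief, steep induction after partial hepatectomy, feeding, acute inflammation and the handling of the tissue itself. Several encode transcription factors that carry the signal on, and others encode proteins that end it: a phosphatase that switches MAP kinases off and an RNA-binding protein that destroys short-lived mRNAs.

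Promoters of 8 members were found in the RefSeq table (build GRCm38.p6), and those of Egr1 and Ier2 were not matched. The 250 bases before the transcript start were searched on both strands for the CArG box (the binding site of SRF), the cAMP response element TGACGTCA, its core TGACG, which the full element contains, the AP-1 site TGANTCA, the EGR site GCGTGGGCG and the TATA box TATAAA. Below are the windows of Zfp36 and Btg2, shown because they are the members with a promoter in the table whose genotype groups did not overlap, and those of Fos and Dusp1, shown because Fos is the founding member of the class and Dusp1 holds most copies of the core. Capitals mark every motif found.

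Zfp36, chr7:28379229-28379478, minus strand: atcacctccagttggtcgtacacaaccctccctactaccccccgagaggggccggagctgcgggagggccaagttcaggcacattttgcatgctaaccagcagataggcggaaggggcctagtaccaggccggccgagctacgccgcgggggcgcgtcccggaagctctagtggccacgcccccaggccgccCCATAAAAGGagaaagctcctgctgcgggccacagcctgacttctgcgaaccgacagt

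Btg2, chr1:134079156-134079405, minus strand: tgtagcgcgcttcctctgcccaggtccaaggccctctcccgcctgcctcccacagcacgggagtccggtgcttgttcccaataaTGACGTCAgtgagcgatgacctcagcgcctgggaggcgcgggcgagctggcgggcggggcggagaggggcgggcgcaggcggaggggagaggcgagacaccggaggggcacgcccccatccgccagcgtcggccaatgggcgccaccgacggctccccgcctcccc

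Fos, chr12:85473640-85473889, plus strand: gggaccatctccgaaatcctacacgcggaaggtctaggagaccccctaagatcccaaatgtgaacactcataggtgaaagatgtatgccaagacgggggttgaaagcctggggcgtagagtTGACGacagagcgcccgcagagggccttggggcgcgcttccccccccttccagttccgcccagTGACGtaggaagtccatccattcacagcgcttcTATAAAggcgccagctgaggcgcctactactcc

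Dusp1, chr17:26508473-26508722, minus strand: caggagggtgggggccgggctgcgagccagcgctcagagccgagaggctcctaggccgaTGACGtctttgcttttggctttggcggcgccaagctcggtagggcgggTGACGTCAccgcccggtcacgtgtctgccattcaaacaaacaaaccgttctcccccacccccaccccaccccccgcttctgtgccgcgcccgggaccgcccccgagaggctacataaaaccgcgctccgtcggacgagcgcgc

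The capitals in Zfp36 are a CArG box 58 to 49 bases before the start, which no other member of the 8 had in this window and which 1.47% of 32851 windows of the same length held. Btg2 had a full cAMP response element 166 to 159 bases before the start, and Dusp1 had another 143 to 136 bases before it and a further core at 191 to 187. The full element was in 2 of 8 members and in 1.55% of all windows. Fos had the core at 129 to 125 and at 66 to 62 and a TATA box at 33 to 28 bases before the start. The core was in 4 of 8 members, Fos, Junb, Dusp1 and Btg2, against 17.8% of all windows, and TATAAA was in 1 of 8 against 12.4%. Neither the AP-1 site (6.75% of all windows) nor the EGR site (0.536%) was found in the 8 members. These matches describe letters in a window, and binding was not measured.

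Values are MAS5 signals, the linear intensity that Affymetrix software gives each probe set after scaling the array, and differences are in log2 units, LIGHT Tg minus WT, with limma's moderated standard error (SE). A probe set was tested where its mean log2 signal reached the median of all probe sets, 7.387 (a signal of 167.4). Of the 16, 12 were tested, covering 9 genes; Ier3 and 3 of the 5 Klf6 probe sets lay below that level and have p-values from a fit without the filter. Adjusted p is Benjamini-Hochberg over all 22519 probe sets tested, with 5% FDR as the threshold.

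Some facts of the whole set of arrays bear on every value below. Summed signals lay between 30820000 and 32500000. They were taken after the scaling of each array, which draws such sums together, so their closeness says little about the arrays. Hepatocyte markers were uniformly high, with Alb between 15912 and 20811. Arrays titled 77 and 78, 1 of each genotype, stood apart from the 4 titled 30 to 35. At its brightest probe set the signal of Xist, transcribed from the inactive X chromosome, was at most 444.0 on that pair and at least 7993 elsewhere, and Y-linked Eif2s3y, at 1 of its probe sets, was at least 1037 on the pair and at most 2.82 elsewhere. Sex is thus not the same in the pair and in the other arrays, and within the set term it cannot be told apart from whatever else the title numbers mark. The fit was repeated with the title-number set as a block, and differences within each set are given where they part. The transgene itself, Tnfsf14, was dim at its brighter probe set, at no more than 11.8 in WT and at least 19.3 in LIGHT Tg. That probe set did not pass in the limma fit without the filter (adjusted p = 0.423). The other read 3.75 to 7.83 in WT and 2.3 to 5.6 in LIGHT Tg, a difference of -0.55 with the groups overlapping. Both lay below the filter, so these arrays do not settle how far the transgene was expressed.

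As a group the 10 genes did not move one way. No member probe set of the 12 tested passed 5% FDR in the limma fit without the block, against 1.17% of all probe sets tested, while 4 of the 12 had an unadjusted p below 0.05, against 11% of all. With the block 2 of 12 passed, against 6.47% of all: Egr1, higher in LIGHT Tg, and Zfp36, lower. With limma's array weights and no block, 4 of 12 passed: Egr1, Zfp36 and both probe sets of Btg2, against 8.85% of all. Such weights do not tell poor quality from a difference between the title-number sets. Groups did not overlap at 3 of 12, Egr1 and 1 probe set of Btg2 above WT and Zfp36 below, where 17.4% of all probe sets tested had groups apart. Over the brightest probe set of each gene 7 of 10 differences were positive with a median of 0.27, beside a median of -0.01 over 11563 genes tested. At least a 2-fold difference in means was seen for 3 of 10 members, Egr1, Ier3 and Zfp36, against 4.21% of genes tested. Ier3 lay below the filter, and the genes tested all lay above it.

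**Figure D1:**
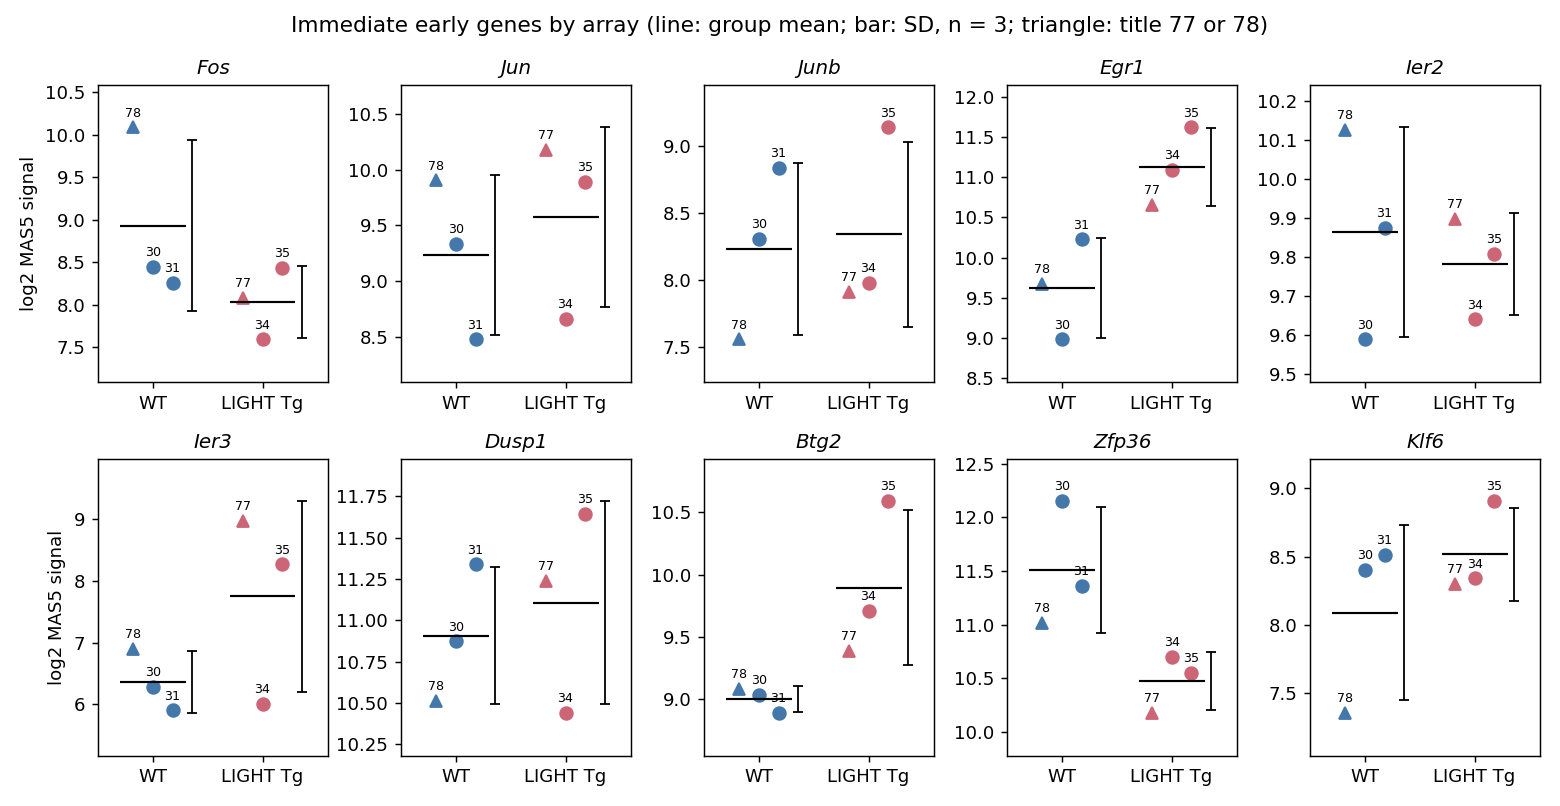
Log2 MAS5 signal of each member at its brightest probe set, by array, for WT (blue) and LIGHT Tg (red); points carry the title number, triangles are the arrays titled 77 and 78, lines are group means, bars are SD (n = 3), and each panel has its own y axis. The groups are apart for Egr1, Btg2 and Zfp36 and overlap for the other 7 genes, with the highest Fos value on WT 78.

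Egr1 had the largest difference among the members. It encodes a zinc finger transcription factor induced by growth factors and stress. Its signals were 815.0, 505.6 and 1198 in WT 78, 30 and 31 and 1610, 2184 and 3150.5 in LIGHT Tg 77, 34 and 35. Every LIGHT Tg liver lay above every WT liver, with LIGHT Tg 35 highest and WT 30 lowest. The means were 9.63 ± 0.62 in WT and 11.12 ± 0.48 in LIGHT Tg (log2, SD, n = 3 each). The difference was 1.496 ± 0.365 (SE), a 2.82-fold higher mean, with a 95% interval of 0.64 to 2.35. It did not pass without the block (limma, adjusted p = 0.139) and passed with it (adjusted p = 0.0466). It was 0.98 within the arrays titled 77 and 78 and 1.75 in those titled 30 to 35. The call with the block was lost whichever array was left out (adjusted p between 0.0574 and 0.146), in the fits without the filter (0.0849) or without the variance trend (0.0904), and with robust fitting (0.0706).

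Zfp36 went the other way. It encodes tristetraprolin, an RNA-binding protein that brings cytokine mRNAs to the deadenylation machinery. Its signals were 2066, 4553 and 2630.4 in WT 78, 30 and 31 and 1154, 1657 and 1494 in LIGHT Tg 77, 34 and 35. All LIGHT Tg values were below all WT values, and WT 30 stood highest. The log2 means were 11.51 ± 0.58 and 10.47 ± 0.27 (SD, n = 3 each). The difference was -1.04 ± 0.303 (SE; 95% interval -1.75 to -0.33), so the WT mean was 2.05-fold higher. The adjusted p was 0.223 without the block and 0.0300 with it in the limma fits. Both sets gave a negative difference, -0.84 for titles 77 and 78 and -1.14 for titles 30 to 35. The blocked call was kept without WT 30 (adjusted p = 0.0468) and without WT 31 (0.0336). It was lost without each of the other 4 arrays, at between 0.0721 and 0.107, without the filter (0.0551) and without the trend (0.0700).

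Btg2, an antiproliferative gene of the BTG/TOB family and a p53 target, was measured by 2 probe sets. The brighter read 541.1, 523.4 and 472.6 in WT 78, 30 and 31 and 668.7, 838.1 and 1543 in LIGHT Tg 77, 34 and 35. The WT livers lay close together, all LIGHT Tg livers were above them, and LIGHT Tg 35 was far above the other LIGHT Tg livers. The difference was 0.90 ± 0.310 (SE; 95% interval 0.17 to 1.62; limma adjusted p = 0.325, and 0.108 with the block). The other probe set read 622.8, 243.0 and 187.7 in WT and 673.6, 584.9 and 1057 in LIGHT Tg. Here WT 78 lay among the LIGHT Tg values, so the groups overlapped. The difference was 1.29 ± 0.463 (adjusted p = 0.347, and 0.105 with the block), with 0.11 between WT 78 and LIGHT Tg 77 and 1.88 among the 4 others. In a limma fit of those 4 arrays alone this was the only member probe set past the threshold (adjusted p = 0.0295), where 4.33% of all passed. With the block and without WT 78 or LIGHT Tg 77, which leaves its difference resting on the same 4 arrays, it passed as well (adjusted p = 0.0297 and 0.0302, with 4.44% and 4.18% of all past the threshold). Whether the effect itself differed between the sets was tested with a product term, which gave -1.77 ± 0.530 and an adjusted p of 0.319.

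**Figure D2:**
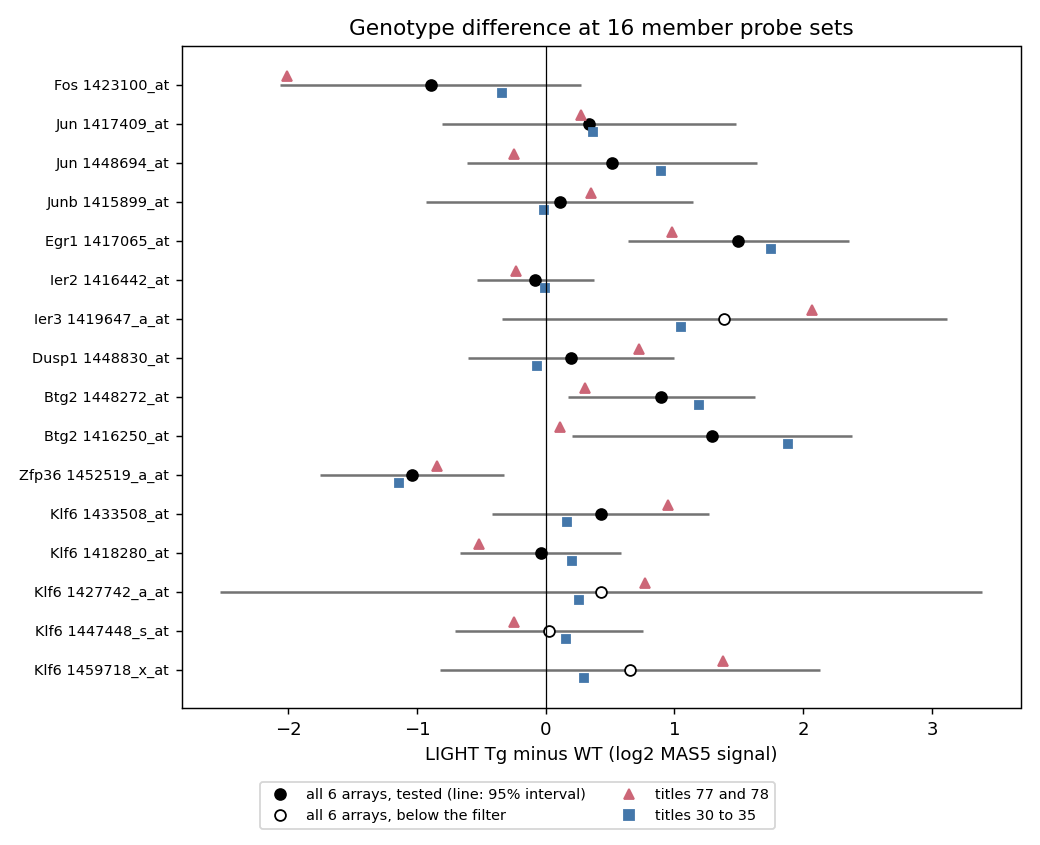
LIGHT Tg minus WT in log2 MAS5 signal at the 16 member probe sets (circles; lines are 95% intervals from limma, open circles are probe sets below the filter), with the difference in the arrays titled 77 and 78 (triangles) and in those titled 30 to 35 (squares). Intervals leave out 0 for Egr1, both Btg2 probe sets and Zfp36, and the interval for Fos runs from -2.07 to 0.28.

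Fos and its partners of the AP-1 dimer did not pass in either fit. Fos, which dimerises with Jun proteins, read 1088 in WT 78, 347.9 in WT 30 and 305.8 in WT 31, and 270.9, 192.6 and 345.9 in LIGHT Tg 77, 34 and 35. WT 78 was over 3 times as bright as any other array, and the remaining 5 overlapped. The difference was -0.89 ± 0.499 (SE; adjusted p = 0.620, and 0.214 with the block), being -2.01 between WT 78 and LIGHT Tg 77 and -0.34 among the 4 others. Without WT 78 it was -0.31. The product term for Fos was -1.67 ± 0.511 (adjusted p = 0.329).

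Jun, the main partner of Fos, read 957.3, 644.4 and 356.1 in WT and 1155, 404.5 and 949.1 in LIGHT Tg at its brighter probe set. The groups overlapped almost fully, with WT 31 and LIGHT Tg 34 low and the arrays titled 77 and 78 and LIGHT Tg 35 high. The difference was 0.34 ± 0.486 (SE; adjusted p = 0.916). The other Jun probe set read 908.5, 331.7 and 269.0 in WT and 765.0, 419.7 and 736.8 in LIGHT Tg, a difference of 0.52 ± 0.479 (adjusted p = 0.830).

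Junb, an AP-1 subunit that can restrain Jun, read 188.6, 317.6 and 457.8 in WT and 241.2, 252.6 and 565.1 in LIGHT Tg. Its difference was 0.11 ± 0.442 (adjusted p = 0.982). Jun was higher and Junb lower on the arrays titled 77 and 78 than on the others, by 0.95 ± 0.365 and -0.83 ± 0.336 at the tested probe sets with the highest signal, and neither passed (adjusted p = 0.0918 and 0.105). The other Jun probe set was higher on that pair by 1.03 ± 0.319, just short of the threshold for the set term in limma (adjusted p = 0.0502).

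Klf6, a Krüppel-like zinc finger factor first studied in activated stellate cells, was read by 5 probe sets that disagreed. The brightest gave 163.6, 338.3 and 365.4 in WT and 315.8, 324.4 and 480.2 in LIGHT Tg, a difference of 0.43 ± 0.358 (SE; adjusted p = 0.789). Only WT 78 was clearly lower than the rest. The other tested probe set lay between 183.5 and 326.4 on the 6 arrays and had a difference of -0.04 ± 0.267 (adjusted p = 0.990). Below the filter, another probe set read only 20.7 on WT 78 and 35.2 on LIGHT Tg 77. The 4 remaining arrays gave 247.8 to 477.1. Its genotype difference was 0.43 ± 1.27 (adjusted p = 0.995 without the filter), while the title-number set moved it by -3.54 (adjusted p = 0.00329), where 16.3% of all probe sets passed for the set in the fit without the filter. The remaining 2 had differences of 0.02 and 0.66, neither past the threshold.

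Ier2, a small nuclear protein of the immediate early class, was the steadiest member at the brightest probe set of each gene. It read 1118, 770.1 and 938.8 in WT and 954.5, 798.0 and 896.7 in LIGHT Tg. The difference was -0.08 ± 0.193 (SE; 95% interval -0.54 to 0.37; adjusted p = 0.963). Its SD within groups was 0.21 on the log2 scale, above 31.99% of genes tested.

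Ier3, an early gene induced by NF-kappaB and known for its part in cell survival, was the most variable member at the brightest probe set of each gene. The dim Klf6 probe set that followed the title numbers varied more, with a 16.1-fold spread in WT and 13.5-fold in LIGHT Tg. Ier3 read 119.0, 77.5 and 59.8 in WT and 499.5, 64.4 and 307.7 in LIGHT Tg. LIGHT Tg 77 and 35 were above every WT array, and LIGHT Tg 34 lay within the WT range, a 7.75-fold spread inside 1 genotype. The difference was 1.39 ± 0.743 (SE; 95% interval -0.34 to 3.12) and did not pass without the filter (adjusted p = 0.762), a fit in which 0.457% of 45037 probe sets passed. Summed signals of 7 neutrophil and monocyte markers were 12480, 6964 and 13342 in LIGHT Tg 77, 34 and 35 and 6995, 8989 and 12153 in WT 78, 30 and 31. LIGHT Tg 34 was the lowest LIGHT Tg array for both, while in WT the order was the reverse of that of Ier3. None of the 6 such markers tested passed 5% FDR by genotype in limma, with 0 at an unadjusted p below 0.05. S100a8 lay between 285.6 and 2364, and the part of these cells in the Ier3 values was not tested.

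Dusp1, the phosphatase that inactivates p38, JNK and ERK, read 1461, 1875 and 2589 in WT and 2417, 1387 and 3201 in LIGHT Tg. The groups overlapped over their whole range. The difference was 0.20 ± 0.341 (SE; adjusted p = 0.934), being 0.73 between WT 78 and LIGHT Tg 77 and -0.06 among the rest.

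The members varied more between livers of 1 genotype than most genes did. The median SD within groups was 0.54 on the log2 scale for the 10 genes and 0.28 for the 11563 genes tested, and 9 of the 10, all but Ier2, lay above that second median. Ier3 was above 98.8% of genes tested, Fos above 95.2% and Junb above 92.4%. Of these Ier3 lay below the filter that the genes tested had passed, so its rank is against brighter genes. LIGHT Tg 35 carried the highest value of 5 of the 10 (Junb, Egr1, Dusp1, Btg2 and Klf6) and the lowest of none, where 14.5% of genes tested had their highest value on that array. WT 78 was highest for Fos and Ier2, LIGHT Tg 77 for Jun and Ier3, and WT 30 for Zfp36. The mean of the members' centred log2 values was 0.57 on LIGHT Tg 35 and -0.30 on LIGHT Tg 34, the highest and the lowest of the 6. So LIGHT Tg 34 and 35, of the same genotype and title-number set, held the extremes.

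**Figure D3:**
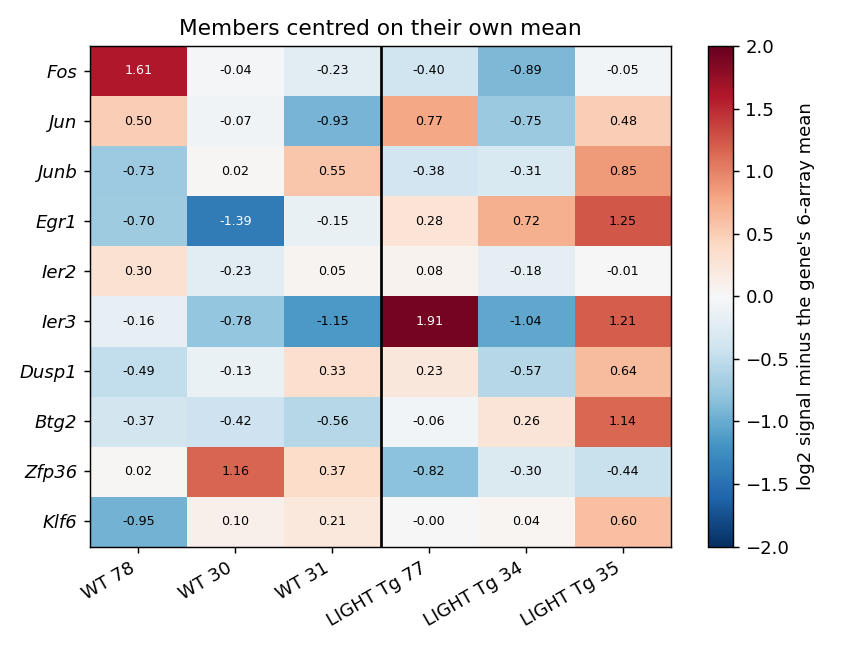
Log2 MAS5 signal of each member minus that gene's mean over the 6 arrays, at the brightest probe set; columns are arrays, the black line parts WT from LIGHT Tg, and red is above the mean. Fos stands out on WT 78 at 1.61, Ier3 on LIGHT Tg 77 at 1.91, and LIGHT Tg 35 has the highest value of 5 of the 10.

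Between the title-number sets no member of the 12 tested passed 5% FDR in limma, where 27.4% of all probe sets tested did; 5 of the 12 had an unadjusted p below 0.05, against 42.2% of all, so this count is near the background. For the product of genotype and set none of the 12 passed and 2 had an unadjusted p below 0.05 (Fos and the dimmer Btg2 probe set), where 0.0666% of all probe sets passed and 11% had an unadjusted p that low. The sign of the genotype difference was the same in both sets for 8 of 10 members, all but Junb and Dusp1, and for 64.0% of genes tested.

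Genes whose profile lay nearest to the members' mean profile were Thbd, Irf7, Rcn3, Gm33727 and Gpr137b. Likeness was the root mean square difference of centred log2 signals over the 6 arrays, between 0.041 for Thbd and 0.112 for Gpr137b. Thbd, which encodes the anticoagulant receptor thrombomodulin, read 294.8, 299.4 and 298.2 in WT and 364.4, 261.1 and 461.5 in LIGHT Tg. For Fos alone the nearest were 9130019O22Rik, Saa3, Gm5142, Hspb6 and Pigt, at 0.255 to 0.292. Saa3, an acute phase serum amyloid, read 4938 in WT 78 and between 897.2 and 1453 on the other 5 arrays. It was picked for its likeness to Fos, so its high value on WT 78, where Fos was high, follows from that choice.

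Other immediate early transcription factors showed no call without the block. Of 22 listed, 12 passed the filter, none passed 5% FDR without the block (2 had an unadjusted p below 0.05) and 2 passed with it, with 4 of 12 differences positive and a median of -0.13. Mafk, a small Maf protein, had signals of 565.4, 431.7 and 373.7 in WT and 858.2, 603.0 and 602.4 in LIGHT Tg, a difference of 0.59 ± 0.239 (SE; limma adjusted p = 0.420, and 0.0435 with the block). Cebpb, a bZIP factor of the acute phase response, had -0.50 ± 0.1798 (adjusted p = 0.354, and 0.0447 with the block). Both blocked calls were lost in the fit without the filter (adjusted p = 0.0741 for Mafk and 0.0887 for Cebpb). Fosb had -0.46 ± 0.315, Cebpd -0.45 ± 0.302 and Klf10 0.95 ± 0.674, none past the threshold in either fit.

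Early feedback and stress genes held the only related gene to pass without the block. Of 32 listed, 31 were matched and 27 tested; 1 rose and 26 did not pass, with a median of 0.22. Plk2, a polo-like kinase of the early response, had signals of 377.4, 223.1 and 250.5 in WT and 1353, 1142 and 1154 in LIGHT Tg. All LIGHT Tg values were at least 3 times the highest WT value. It rose by 2.13 ± 0.238 (SE; limma adjusted p = 0.0122, and 0.000630 with the block), and the call was lost in 4 of the 6 fits with 1 array left out, without WT 30, WT 31, LIGHT Tg 34 or LIGHT Tg 35 (adjusted p up to 0.0923). With the block 2 genes of this list fell. Zfp36l2, the paralog of Zfp36 with the same kind of RNA-binding domain, read 1494, 2369 and 3164 in WT and 664.7, 711.6 and 973.4 in LIGHT Tg, a difference of -1.53 ± 0.299 (adjusted p = 0.0735, and 0.00688 with the block). Ccn2, the connective tissue growth factor gene, read 514.9, 726.2 and 861.0 in WT and 303.8, 264.6 and 473.7 in LIGHT Tg (-1.03 ± 0.295; adjusted p = 0.215, and 0.0498 with the block). In the blocked fit without the filter Zfp36l2 kept its call (adjusted p = 0.0132) and Ccn2 lost it (0.0918). Gadd45g at 1.12 ± 0.350, Socs3 at 0.85 ± 0.319 and Pim3 at 0.52 ± 0.230 did not pass in either fit.

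The route that leads to these genes showed no call. Of 33 listed genes of the serum response and MAP kinase pathway 25 were matched and 22 tested, 0 passed with or without the block in limma, and 1 had an unadjusted p below 0.05 (median -0.02). Atf2, a CREB-family factor, had -0.48 ± 0.154 (adjusted p = 0.279), the hepatocyte growth factor receptor Met -0.38 ± 0.184 and the SRF partner Elk3 0.35 ± 0.203. Of 13 mRNAs known to be bound by Zfp36 only 5 passed the filter, 0 passed the limma test in either fit, and 0 had an unadjusted p below 0.05 (4 of 5 positive, median 0.37). Among them Il1b read 223.5, 166.3 and 194.4 in WT and 274.0, 242.9 and 413.6 in LIGHT Tg, a difference of 0.64 ± 0.280 (adjusted p = 0.470), Ccnd1 had 0.81 ± 0.475 and Pim1 0.37 ± 0.207. Genes of this list below the filter were mostly negative. Tnf had -0.595, Il10 -0.337, Cxcl2 -0.146, Ccl2 -0.234, Ptgs2 -1.005 and Csf2 -1.001, while Il6 had 0.775 and Ccl3 0.625. None of these passed in the fits without the filter, so the list as a whole did not lean one way.

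Heat shock, glucocorticoid and clock genes were read beside the members because immediate early genes also answer tissue handling, stress hormones and time of day. Of 10 heat shock genes tested 0 passed in limma without the block, with 0 at an unadjusted p below 0.05 (median 0.03). With the block Hsp90aa1 passed (0.36 ± 0.244; adjusted p = 0.714, and 0.0353 with the block), while Hspb1 had -1.26 ± 0.659, Bag3 0.46 ± 0.241 and Hsph1 0.17 ± 0.186. Of 10 glucocorticoid responsive genes 0 passed without the block and 2 had an unadjusted p below 0.05 (median -0.04). Tsc22d3, the glucocorticoid-induced leucine zipper, had -0.96 ± 0.309 (adjusted p = 0.280, and 0.0320 with the block), Per1 had -0.56 ± 0.222, Sgk1 0.46 ± 0.261 and Pck1 -0.22 ± 0.201. Of 11 clock genes 9 had negative differences (median -0.40), 0 passed without the block and 2 had an unadjusted p below 0.05. Hlf, a PAR bZIP factor of clock output, passed with the block (-0.74 ± 0.218; adjusted p = 0.224, and 0.0456 with the block), and Nr1d2 had -0.38 ± 0.189 and Tef -0.45 ± 0.297. The blocked calls of Hsp90aa1, Tsc22d3 and Hlf were all lost without the filter (adjusted p = 0.0877, 0.0625 and 0.0736). LIGHT Tg 35, where the members were highest, had the lowest summed signal of the 13 clock genes, 9653 against 14925 to 19907 on the other 5 arrays. That sum is weighted to the brighter genes, and the list did not move as one. Dbp read 378.8 on LIGHT Tg 35 and 1341 to 4919.5 elsewhere. Arntl was highest on LIGHT Tg 35, at 824.8 against 202.1 to 595.5, and Clock, Npas2, Nr1d1 and Cry2 were not at their lowest there. No source used here gives the hour at which livers were taken, and the part of handling, hormones or hour in the members' values was not tested.

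**Figure D4:**
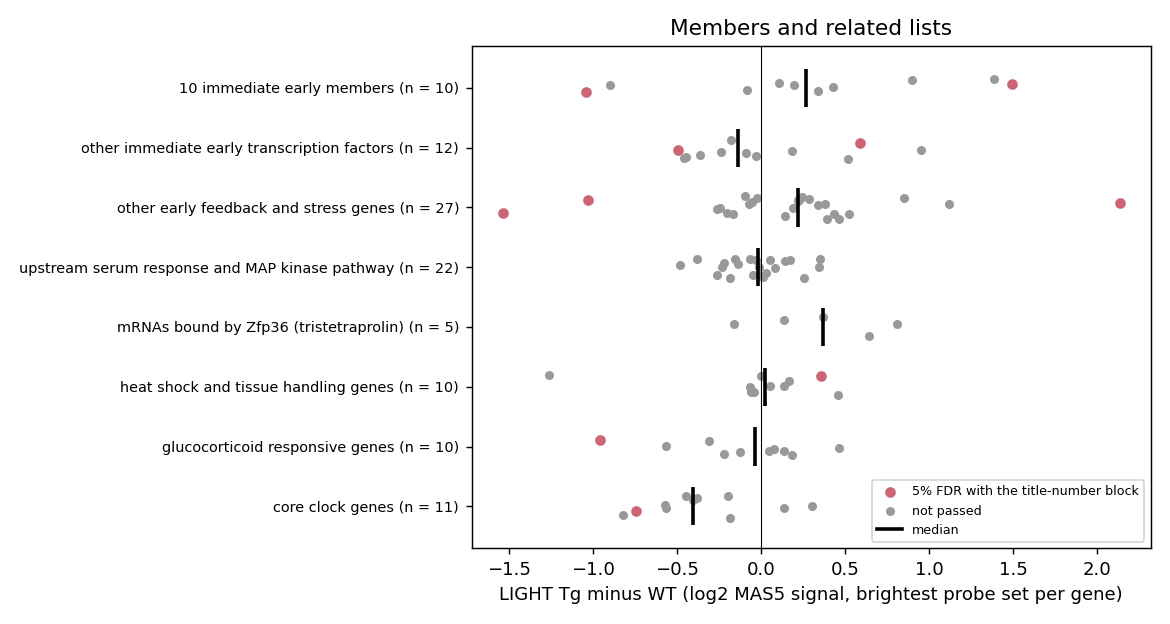
LIGHT Tg minus WT in log2 MAS5 signal for the 10 members and the tested genes of 7 related lists, 1 point per gene at its brightest probe set (vertical scatter carries no value); red points passed 5% FDR with the title-number block and bars are list medians. The medians run from -0.40 for the clock list to 0.37 for the Zfp36-bound list, and Plk2 and Zfp36l2 are the extremes.

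Markers of other liver cells moved with genotype in part. Of 8 endothelial markers 2 rose in limma, Vwf by 2.39 ± 0.229 and Lyve1 by 1.24 ± 0.1998 (adjusted p = 0.00678 and 0.0393), and 6 did not pass. Without the filter the Lyve1 call was lost (adjusted p = 0.0519). Their summed signal was 8183 to 9027 in WT and 11469 to 14353 in LIGHT Tg. Of 3 tested B cell and plasma cell markers Ighm rose by 3.62 ± 0.208 (adjusted p = 0.000821) and 2 did not pass, with 2 of the 3 differences positive. Summed signals over the 5 matched were 1160 to 1444 in WT against 5041 to 6871 in LIGHT Tg. Summed signals of 7 Kupffer cell markers overlapped, at 28262 to 32276 in WT and 19668 to 31718 in LIGHT Tg, and 0 of 7 passed, with 0 at an unadjusted p below 0.05. The T cell marker Cd3e was dim, at 56.1 to 120.7, and no marker of any list was at 0. In RNA of whole liver a change in the number of cells of a type and a change in RNA per cell cannot be told apart, and the part of these cells in the Egr1, Btg2 and Zfp36 differences was not tested.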

How the data were processed

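Total liver RNA from 2 genotypes, 3 samples each, was measured on 6 Affymetrix arrays. The deposited values are MAS5 signal intensity per probe set on a linear scale, with MAS5 named in the submitters' processing notes. No source used here states the software version or the scaling target. Present or absent calls were not used here, so a dim probe set has a low signal and no more is known of it. The number of arrays limits the precision.

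Of 45101 probe sets, 64 controls were left out. Symbols came from the array's annotation, checked by gene ID against RefSeq (GRCm38.p6, 0 changed); 34945 had 1 symbol, 932 several and 9160 none here. Before log2, 106 signals under 1 were raised to 1. Probe sets at or above the median mean log2 signal were fitted in limma 3.58.1 (R 4.3.3; lmFit, eBayes with trend), two-sided, with genotype alone, with the title-number set as a block, and with their product. Levels of different probe sets were not compared. Lists are described by counts and medians at each gene's brightest probe set, with no list test; older symbols were updated through RefSeq synonyms.

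Genes named are all members; from each related list those past 5% FDR in either fit and the 3 others with the largest statistic; the 5 nearest profiles; Tnfsf14; and markers where a result touches them. The members and lists were chosen with earlier results of these data known. The fit and the motif search were tested on simulated data or made strings. Alternatives were other filters, an offset of 37.5, quantile or median scaling, eBayes without trend or robust, array weights, the block, the arrays titled 30 to 35 alone, each array left out, and the mean of a gene's probe sets. Repeats of the blocked fit were added after seeing the data. Figures used matplotlib 3.10.9 (Python 3.11.15).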

Additional observations from a re-analysis of the deposited data

How the results depend on the processing

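The count of member probe sets past 5% FDR in limma was 0 in every alternative run except with array weights (4: Egr1, Zfp36 and both of Btg2), with the title-number set as a block (2) and in the arrays titled 30 to 35 alone (1). Over all probe sets these settings called 1992, 1457 and 975, eBayes without the trend 148, and leaving out 1 array between 34 and 311, against 264. Related-list genes past the threshold were 12, 8 and 3 in the same 3 settings and between 0 and 2 with an array left out, against 1. With the block and without the filter 0 members passed, where 1090 of all 45037 probe sets did. With the block and without the trend 0 members passed, where 811 of all 22519 did. The blocked fit with robust fitting called 1 member and 1505 of all, and with array weights 3 members and 1674 of all. With the block and the filter at the 75th percentile 2 members passed, where 1390 of all 11260 did. With the block and the offset, quantile scaling or median scaling 2 members passed, where between 1370 and 1527 of all 22519 did. With an array left out the blocked fit called between 0 and 1 member and between 480 and 999 of all. The members' median stayed positive under every alternative run, between 0.055 and 0.525 against 0.27, and its size depended on single arrays. It was 0.055 without WT 78 and also without LIGHT Tg 35, and 0.525 without LIGHT Tg 34. Among members that passed nowhere, the sign turned for Junb (-0.013), Dusp1 (-0.064) and the second Klf6 probe set (0.201) in the arrays titled 30 to 35 alone, and for that Klf6 probe set with array weights (0.175). With an array left out Junb ranged from -0.289 to 0.411, Dusp1 from -0.070 to 0.534, Jun from -0.042 to 0.795, Ier2 from -0.218 to 0.051, the second Klf6 probe set from -0.230 to 0.186 and the third from -0.835 to 1.53. No scaling turned the sign of a member. No paired analysis was possible because the groups share no replicate number. The causes of these differences were not tested.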
